A study of Mus musculus with 16 samples.

Results

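The data described here are the junctions of chr12:70000001-100000000 on mouse genome build mm9, a stretch that lies on the centromere side of the immunoglobulin heavy chain locus, Igh, near the telomeric end of that chromosome. A junction was taken as a member when its genomic end, the prey, lay on chromosome 12 between those positions, counted at the base that touched the join. This gave 739 junctions of 33479 outside chromosome 15 and of 141167 in all. The method was HTGTS, a sequencing assay of translocations that reads the genomic partners joined to 1 chosen break, the bait. An array of 25 I-SceI sites in the first intron of 1 Myc allele on chromosome 15 served as bait, and a GFP-marked retrovirus delivered the I-SceI enzyme that cut it.

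All 16 libraries were from IgM+ spleen B cells of 129sv mice aged 6 to 8 weeks, and all carried the array. ATM-/- cells (3 libraries), WT cells given the ATM kinase inhibitor KU55933 at 10 µM from infection onward (3 libraries) and WT cells without it (4 libraries) grew in anti-CD40 at 1 µg/mL with IL4 at 20 ng/mL, were infected after 24 h and were harvested on day 4. Cells labelled ATM-/- (3 libraries) and WT (3 libraries) grew with a reagent listed as RP105 at 2 µg/mL. They were infected after 48 h and were harvested on day 5. Anti-CD40 with IL4 imitates T cell help and brings on class switching. The protein RP105 is a receptor of the Toll-like receptor family on B cells that makes them divide when engaged. KU55933 blocks the activity of ATM without removing the ATM protein. The labels give neither the number of mice behind a group nor how the ATM allele was made, so the p-values measure the spread between these libraries. The files hold junction lists and no expression, so neither the genotype nor cell type markers could be checked. Since the RP105 libraries ran opposite to the CD40 ones, they are called "labelled ATM-deficient" and "labelled WT" throughout.

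ATM is the kinase that responds to DNA double-strand breaks and helps hold broken ends together until they are joined. In activated B cells the enzyme AID starts breaks in the switch regions of Igh, which are joined during class switching, and ATM-deficient B cells are known to leave some Igh breaks unjoined on chromosome 12. HTGTS counts where broken ends were joined to the bait, and a broken chromosome can offer ends far from the first break.

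Libraries held from 586 to 5604 junctions outside chromosome 15. WT and ATM-deficient CD40 libraries were read on 454 instruments and the inhibitor and RP105 libraries on MiSeq, so the inhibitor or the stimulus and the instrument cannot be told apart in any comparison across them. Some libraries shared prey positions. Labelled ATM-deficient RP105 replicate 3 and labelled WT RP105 replicate 3, which came from 1 sequencing run, had 142 positions and strands in common outside chromosome 15, or 12.3% of the positions of the library labelled ATM-deficient and 5.69% of those of the library labelled WT. Inhibitor replicates 1 and 2, also of 1 run, shared 186, while no pair of libraries from different runs shared more than 37. In the interval, 10 positions were found in 2 libraries, 5 of them in that RP105 pair and 3 in that inhibitor pair. The 5 shared positions were 5 of the 18 interval junctions of labelled ATM-deficient RP105 replicate 3. Values without any position held by more than 1 library are given beside the RP105 comparison.

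A pair of dense groups of junctions, at genes named in the results, show what the data look like at base level. The first 30 prey bases of some of their junctions are given. Each runs 5′ to 3′ away from the join, taken from the mm9 target sequence in the deposited files, with the motif AGCT in capitals. AGCT reads the same on both strands and is a sequence that AID is known to favour. At Zfp36l1, 4 junctions of inhibitor libraries fell within 67 bases and met the same stretch from both sides.
Zfp36l1, chr12:81213213-81213242, plus: tgcagcacgatcgaccAGCTcccgcagcgg
Zfp36l1, chr12:81213218-81213247, plus: cacgatcgaccAGCTcccgcagcgggaacc
Zfp36l1, chr12:81213238-81213267, minus: tgtccgccccAGCTgggctaggttcccgct
Zfp36l1, chr12:81213250-81213279, minus: tgtagtggagtttgtccgccccAGCTgggc
Batf, chr12:87028029-87028058, minus: ttcctgccacgAGCTacttccttccccaga
Batf, chr12:87028565-87028594, minus: ccctggtttttcagggatgatattAGCTac
Batf, chr12:87029100-87029129, plus: gcacattaaaggaagaatatatccttgccc
The first Batf sequence came from ATM-deficient CD40 replicate 1, the second from inhibitor replicate 3 and the third, which lacks the motif, from WT CD40 replicate 2. AGCT stood in the first 30 prey bases of 103 of the 681 interval junctions with at least 30 bases, or 15.1%, against 4945 of 30892 or 16.01% of junctions outside chromosome 15. The interval as a whole thus held the motif about as often as all junctions outside chromosome 15, a set that includes the interval itself and Igh. In the Zfp36l1 group 5 of 14 junctions held it, and in the Batf group 2 of 7. The sequences printed are mostly ones that hold it, while most junctions of both groups that are not printed lack it. Both groups were picked for their density and these are counts only. A match is a run of letters and not evidence of AID there.

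The first question was how large a share of all joins outside the bait chromosome fell in the interval. ATM-deficient CD40 libraries had 46, 61 and 66 junctions there, which were 2.10%, 2.25% and 3.45% of their junctions outside chromosome 15. Inhibitor libraries had 83, 112 and 118, or 2.30%, 2.06% and 2.11%. WT CD40 libraries had 16, 13, 16 and 6, or 1.22%, 1.43%, 1.06% and 0.821%. Every ATM-deficient and every inhibitor library lay above every WT CD40 library, and the inhibitor libraries differed little among themselves. Under RP105 the libraries labelled ATM-deficient had 3, 7 and 18 junctions, or 0.512%, 0.941% and 1.56%. Those labelled WT had 49, 31 and 94, or 3.02%, 3.24% and 3.77%. The libraries labelled ATM-deficient all lay below those labelled WT, with no overlap, which is the opposite order to CD40. The exact 95% Clopper-Pearson interval of the shallowest library, labelled ATM-deficient RP105 replicate 1, ran from 0.106% to 1.49%, and that of labelled WT RP105 replicate 3 from 3.05% to 4.59%. Such intervals cover counting error only. Because each value is a share, joins elsewhere in the genome also move it.

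**Figure D1:**
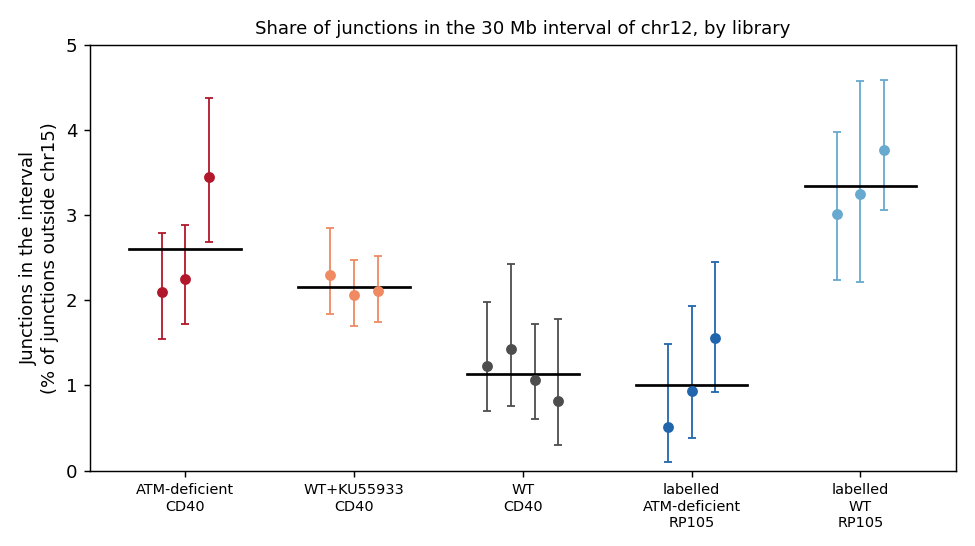
Share of junctions outside chromosome 15 that fell in the interval, in percent, with 1 point per library, exact 95% binomial intervals as bars and the group mean as a black line. ATM-deficient and inhibitor libraries lie between 2.06% and 3.45%, above WT CD40 at 0.821% to 1.43%, while libraries labelled ATM-deficient under RP105 lie at 0.512% to 1.56%, below those labelled WT at 3.02% to 3.77%.

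The genome outside chromosome 15 was cut into 104 windows of 30 Mb or less, placed so that the interval is 1 of them, and junction counts were tested with edgeR's quasi-likelihood test, with Benjamini-Hochberg adjustment over all windows. Fold changes are on the log2 scale of counts relative to junctions outside chromosome 15. In ATM-deficient over WT CD40 libraries the interval rose by 1.15 (SE 0.23, adjusted p = 0.00031), or 2.22-fold. It was the 1 window called, so 0.962% of windows passed in that comparison. Means were 2.60% ± 0.74 (SD, n = 3) in ATM-deficient and 1.13% ± 0.26 (SD, n = 4) in WT libraries. Both sequencing runs that held a library of each genotype showed the direction, with log2 ratios of shares of 1.08 and 2.07.

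Inhibitor over WT CD40 libraries gave a rise of 0.90 (SE 0.22, adjusted p = 0.0063 by edgeR), or 1.87-fold, with a mean share of 2.16% ± 0.13 (SD, n = 3) in inhibitor libraries and the same WT libraries as before. The interval was 1 of 2 windows called, or 1.92%. Without WT CD40 replicate 3 the log2 value was 0.85 with an adjusted p of 0.15, so that call rests on this library. The comparison of ATM-deficient with inhibitor libraries left the interval short of the threshold at 0.25 (SE 0.17, adjusted p = 0.50 by edgeR), with a 95% interval of -0.08 to 0.58, and 2.88% of windows passed there. These comparisons share libraries and are not independent of each other.

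Under RP105 the interval fell by 1.60 on the log2 scale in libraries labelled ATM-deficient over those labelled WT (SE 0.28, adjusted p = 5.2e-06 by edgeR), to 0.33 of the level. Mean shares were 1.00% ± 0.53 where the label was ATM-deficient and 3.34% ± 0.38 where it was WT (SD, n = 3 each). Of all windows 1.92% passed, and the other called window was the next one on chromosome 12, which holds Igh, with a log2 value of -1.45. Within the runs that held both labels the log2 ratios were -1.27 and -2.16. Shares were also computed without any position held by more than 1 library, in the interval or elsewhere. They were 0.564%, 1.01% and 1.33% in libraries labelled ATM-deficient and 3.13%, 3.34% and 3.87% in those labelled WT. The fold change was -1.82 (adjusted p = 3.5e-07 by edgeR) with only the repeated positions inside the interval left out. That filter took 5 of the 18 interval junctions of labelled ATM-deficient RP105 replicate 3. It took a smaller part of labelled WT RP105 replicate 3, so a larger fall is partly built in.

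Between stimuli, libraries labelled WT rose by 1.57 under RP105 over CD40 (SE 0.23, adjusted p = 8.7e-08 by edgeR), or 2.97-fold, and 3.85% of windows passed. Libraries labelled ATM-deficient fell by 1.19 under RP105 over CD40 (SE 0.28, adjusted p = 0.0013 by edgeR), and 6.73% passed. The difference between the genotype effects, RP105 minus CD40, was -2.75 (SE 0.36, adjusted p = 1.9e-09 by edgeR), the smallest p of the 104 windows, with 1.92% of windows passing. These contrasts reuse the groups above and cross the instruments.

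**Figure D2:**
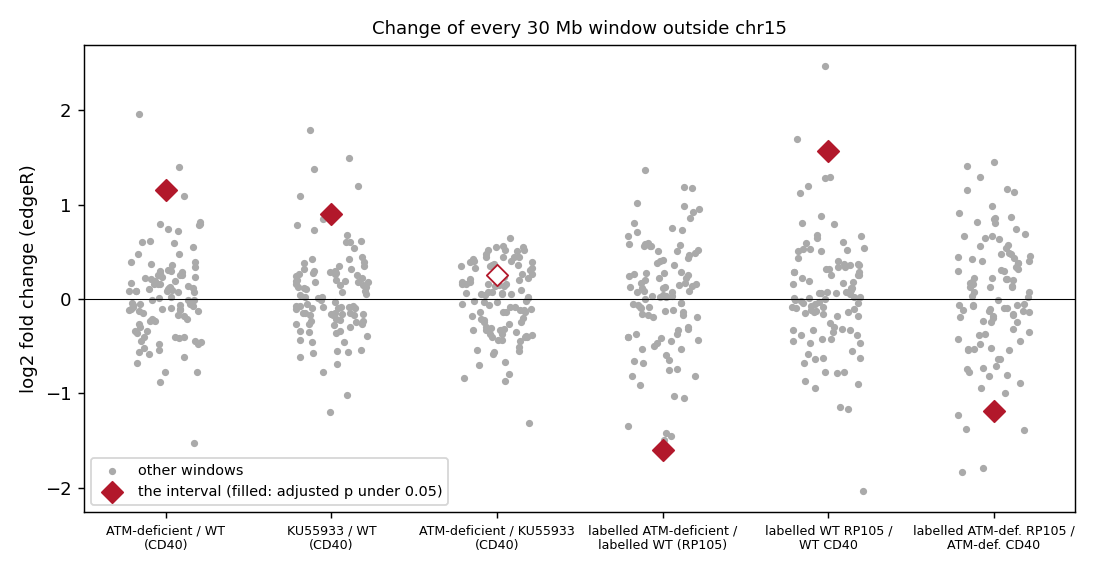
Log2 fold change from edgeR of each of the 104 windows outside chromosome 15 in 6 comparisons, with other windows as grey points and the interval as a diamond, filled where its adjusted p was under 0.05. The interval lies at 1.15, 0.90, 0.25, -1.60, 1.57 and -1.19 from left to right.

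The exact two-sided permutation test over libraries cannot reach 0.05 at these group sizes, since its smallest p is 0.0571 for 4 against 3 libraries and 0.1 for 3 against 3. Over 6 pairs of groups the share of the interval gave that smallest p in 5. Adjusted over the 6 pairs those values were 0.114 and 0.12. The remaining pair, ATM-deficient and inhibitor libraries, differed by 0.443 percentage points with a permutation p of 0.6.

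Among the 67 windows of full length, the interval ranked 2nd by mean share in ATM-deficient CD40 libraries, 4th in inhibitor libraries and 24th in WT CD40 libraries. It ranked 34th in RP105 libraries labelled ATM-deficient, and 1st among those labelled WT. The share of the interval was 2.71, 2.33 and 1.22 times the median full-length window in the CD40 groups in that order. In the RP105 groups it was 1.00 and 3.55 times.

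A second question was whether the interval took a changed part of chromosome 12. Of the chromosome 12 junctions below 100 Mb, 60.8% ± 6.89 in ATM-deficient (SD, n = 3), 60.7% ± 7.33 in inhibitor (SD, n = 3) and 56.2% ± 12.5 in WT CD40 libraries (SD, n = 4) lay in the interval. None of those pairs differed beyond its spread, with exact permutation p-values from 0.629 to 1. Libraries labelled ATM-deficient under RP105 had 17.6%, 36.8% and 42.9% and those labelled WT had 56.3%, 63.3% and 68.1%. The groups did not overlap, and the exact permutation p was 0.1, the smallest possible, or 0.3 after adjustment over 6 pairs. On the same chromosome the window from 10 to 40 Mb had a log2 value of 1.40 (adjusted p = 0.064 by edgeR) and that from 40 to 70 Mb one of 0.55 (adjusted p = 0.87 by edgeR) in ATM-deficient over WT CD40 libraries, so neither passed. The window from 10 to 40 Mb did pass in labelled WT RP105 over WT CD40 libraries, at 1.69 (SE 0.42, adjusted p = 0.0043 by edgeR). The window from 100 Mb, which holds Igh, was called by edgeR at -1.45 (adjusted p = 8.6e-08) in labelled ATM-deficient over labelled WT RP105, at -0.77 (1.6e-05) in labelled WT RP105 over WT CD40, at -1.83 (1.3e-12) in labelled ATM-deficient RP105 over ATM-deficient CD40 and at -1.06 (0.0038) in the interaction.

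Along the interval, density was described per Mb and per 1000 junctions outside chromosome 15. From 40 to 70 Mb the mean was 0.197 ± 0.099 in ATM-deficient (SD, n = 3), 0.191 ± 0.038 in inhibitor (SD, n = 3) and 0.134 ± 0.067 in WT CD40 libraries (SD, n = 4). Within the interval the means were 0.866 ± 0.247, 0.719 ± 0.043 and 0.378 ± 0.086 in the same order. From 100 to 110 Mb they were 2.29 ± 0.49, 1.03 ± 0.02 and 0.449 ± 0.253. Toward Igh, density was higher again in ATM-deficient and inhibitor libraries, and in WT libraries that stretch lay within the spread of the interval. Under RP105 the 3 stretches had 0.178 ± 0.047, 0.334 ± 0.175 and 0.598 ± 0.396 in libraries labelled ATM-deficient, against 0.266 ± 0.056, 1.11 ± 0.13 and 3.39 ± 0.44 in those labelled WT (SD, n = 3 each). Inside the edge density was thus above the 40 to 70 Mb stretch by more than these SDs in every group but the RP105 libraries labelled ATM-deficient. Those held 0.403 ± 0.069 from 3 to 40 Mb (SD, n = 3), a mean above that of their interval and up to 0.979 in the bin from 25 to 30 Mb, while the other groups held 0.135 to 0.324 there.

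Density did not climb evenly to the Igh side. Within the interval it was highest from 85 to 90 Mb, at (mean ± SD over the same libraries) 1.36 ± 0.16 in ATM-deficient, 1.05 ± 0.23 in inhibitor and 0.732 ± 0.299 in WT CD40 libraries. It was 0.525 ± 0.519 in RP105 libraries labelled ATM-deficient and 1.99 ± 0.28 where the label was WT. The next 5 Mb, from 90 to 95 Mb, held 0.650 ± 0.287, 0.357 ± 0.172 and 0.269 ± 0.282 in the CD40 groups, and 0.171 ± 0.171 and 0.969 ± 0.136 in the RP105 groups, each in that order. In 15 of 16 libraries the 10 Mb from 80 to 90 Mb held more junctions than the 10 Mb from 90 to 100 Mb, with 354 against 161 in all. The exception was labelled ATM-deficient RP105 replicate 1, with 0 and 1. No test compared bins with each other.

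**Figure D3:**
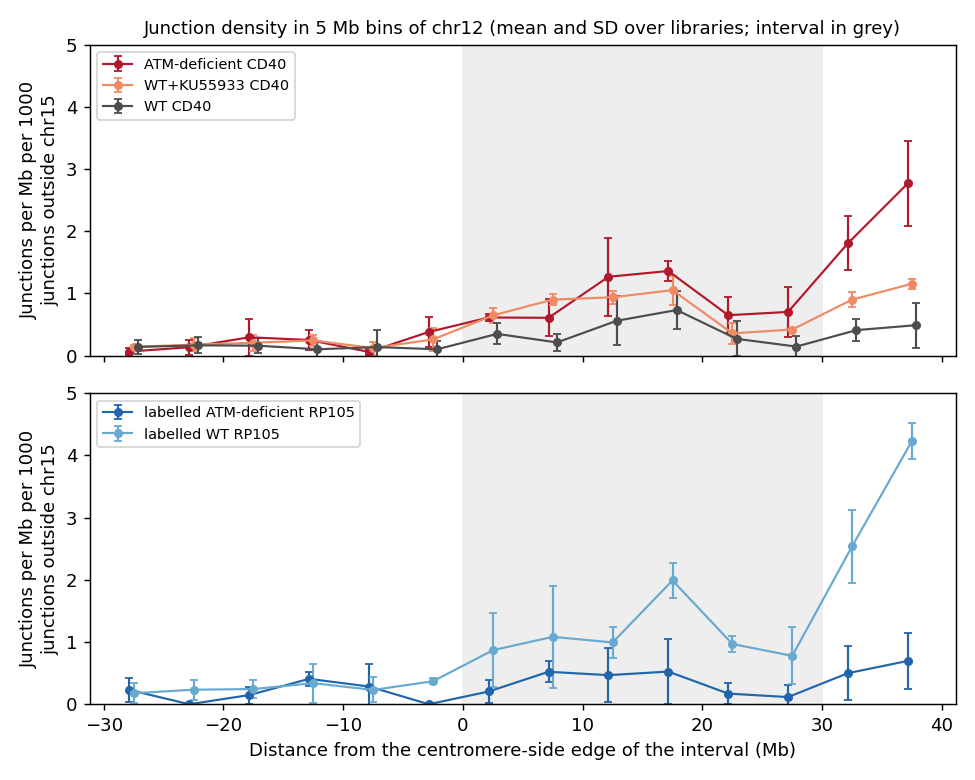
Junctions per Mb per 1000 junctions outside chromosome 15 in 5 Mb bins of chromosome 12, against distance in Mb from the centromere-side edge of the interval (grey), as means with SD bars over libraries, for CD40 groups above and RP105 groups below. In the CD40 groups and labelled WT RP105, the mean is higher just inside the edge than just outside it, and within the interval it is highest between 15 and 20 Mb from the edge. Labelled ATM-deficient RP105, with 28 interval junctions, has nearly the same mean in 2 bins of the interval (0.522 and 0.525).

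The 6 bins of 5 Mb were each tested among 455 bins of the genome. In ATM-deficient over WT CD40 libraries all 6 had positive log2 values, from 0.76 to 2.23 with a median of 1.09. After adjustment by edgeR's Benjamini-Hochberg values 0 of 6 passed, and the share called over all bins was 0.44%. Inhibitor over WT libraries gave 6 positive values with a median of 0.70 and 0 called, at 0.22% of all bins. In ATM-deficient over inhibitor libraries 4 were positive and 2 negative, with 0 called, at 0.22% of all bins. Libraries labelled ATM-deficient over those labelled WT under RP105 gave 6 negative values, with a median of -1.81 and 0 called, at 0.44%. DESeq2 also called 0 of the 6 in these 4 comparisons. The medians over all 455 bins were 0.07, 0.02, 0.04 and 0.04, so the bins of the interval leaned together in the direction that the whole window showed. They hold the same junctions as that window, so their shared sign is not separate evidence.

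In labelled WT RP105 over WT CD40 libraries the bin from 85 to 90 Mb rose by 1.57 (SE 0.44, adjusted p = 0.024 by edgeR), 1 of 6 called where 1.54% of all bins were. It held 52 junctions in RP105 libraries labelled WT and 15 in WT CD40 libraries. DESeq2 did not call it (adjusted p = 0.19), nor did edgeR without WT CD40 replicate 1 (adjusted p = 0.10) or 3 (0.23), or without labelled WT RP105 replicate 1 (0.090) or 3 (0.15). In labelled ATM-deficient RP105 over ATM-deficient CD40 libraries 0 of 6 bins passed by edgeR or DESeq2, with 1.32% of all bins called. The interaction called the bins from 85 to 90 Mb (-2.67, SE 0.70, adjusted p = 0.015 by edgeR) and from 95 to 100 Mb (-4.44, SE 1.15, adjusted p = 0.015), 2 of 6 where 0.879% of all bins passed. Both calls were lost without WT CD40 replicate 3 (adjusted p = 0.098 for each) and without labelled ATM-deficient RP105 replicate 1 (0.088 and 0.058) or 2 (0.073 and 0.11). The second was also lost without ATM-deficient CD40 replicate 3 (0.14) or labelled WT RP105 replicate 3 (0.18), and its value was -8.33 without labelled ATM-deficient RP105 replicate 3. With sequencing run as a block neither passed by edgeR, at -2.84 (adjusted p = 0.22) and -5.46 (0.063). DESeq2 did not call the second (-4.88, adjusted p = 0.14), and the first was lost when only 1 Mb around the break was left out (-2.07, adjusted p = 0.086 by edgeR). The bin from 95 to 100 Mb held 23 and 3 junctions in ATM-deficient and WT CD40 libraries, and 2 and 20 in RP105 libraries labelled ATM-deficient and WT.

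Joins can face either way, and the strand of the prey records which broken end was caught. In the interval 85 junctions were on the plus strand and 88 on the minus strand in ATM-deficient CD40 libraries, 150 and 163 in inhibitor libraries, and 27 and 24 in WT CD40 libraries. Under RP105 the counts were 17 and 11 where the label was ATM-deficient and 96 and 78 where it was WT. Both orientations were thus caught in every group. The mean plus share per library (± SD) was 49.2% ± 0.76 in ATM-deficient, 48.4% ± 4.04 in inhibitor and 57.4% ± 17.4 in WT CD40 libraries, where replicate 4 had 5 of 6 on the plus strand. It was 43.1% ± 38.1 in RP105 libraries labelled ATM-deficient and 55.7% ± 3.10 where the label was WT. Over all junctions outside chromosome 15 the group means lay between 49.4% and 50.6%. Of the 6 pairs of groups none differed beyond its spread, with exact permutation p-values from 0.514 to 1. By bin, the plus share over all libraries ran from 45.7% at 85 to 90 Mb to 56.3% at 70 to 75 Mb.

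Reads also show how many bases the bait and prey parts of a join have in common. The deposited column Gap1 was read as that measure, negative where both parts can claim the same bases. It matched the reads themselves for 77.1% to 90.1% of checked junctions per library. Of the 621 interval junctions with a value from -10 to 10, 246 had an overlap of 2 bases or more, 140 an overlap of 1 base, 157 were blunt and 78 had inserted bases. Overlaps of 2 or more made up 59 of 146 in ATM-deficient, 102 of 267 in inhibitor and 22 of 44 in WT CD40 libraries. They made up 6 of 16 in RP105 libraries labelled ATM-deficient, and 57 of 148 among those labelled WT. Per library the mean share (± SD) was 39.95% ± 4.92 in ATM-deficient, 38.3% ± 2.30 in inhibitor and 51.3% ± 13.4 in WT CD40 libraries. The exact permutation p was 0.114 for each of these against WT, or 0.229 after adjustment over 6 pairs, so neither passed. Outside chromosome 15 as a whole the same share was 41.8% ± 1.70, 39.4% ± 4.82 and 35.5% ± 1.34 in that order. In the interval the WT libraries lay between 38.5% and 50.0% but for replicate 3, which was higher, and without it the differences from WT were -5.09 percentage points for ATM-deficient and -6.73 for inhibitor libraries, as compared with -11.3 and -13.0 over all libraries.

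Gene labels marked 414 of the 739 junctions, or 56.0%. On average per library (± SD), 56.9% ± 2.12 of ATM-deficient, 57.5% ± 3.75 of inhibitor and 51.3% ± 10.4 of WT CD40 junctions in the interval carried one, against 54.9% ± 1.05, 56.2% ± 2.62 and 58.5% ± 2.13 outside chromosome 15. In RP105 libraries it was 62.7% ± 11.2 in those labelled ATM-deficient and 56.4% ± 9.89 where the label was WT, against 52.8% ± 1.12 and 51.1% ± 0.53 outside chromosome 15. None of the 6 pairs differed beyond its spread, with exact permutation p-values from 0.4 to 1. By bin the labelled part varied far more than by group. It was 68.2% from 80 to 85 Mb and 62.4% from 85 to 90 Mb, and 15.2% from 95 to 100 Mb, where 12 of 79 junctions carried 1 of 4 labels. That last bin had 4 labelled of 23 in ATM-deficient, 4 of 31 in inhibitor and 0 of 3 in WT CD40 libraries, and 0 of 2 and 4 of 20 in RP105 libraries labelled ATM-deficient and WT, so its junctions lay mostly outside labelled genes in every group.

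**Figure D4:**
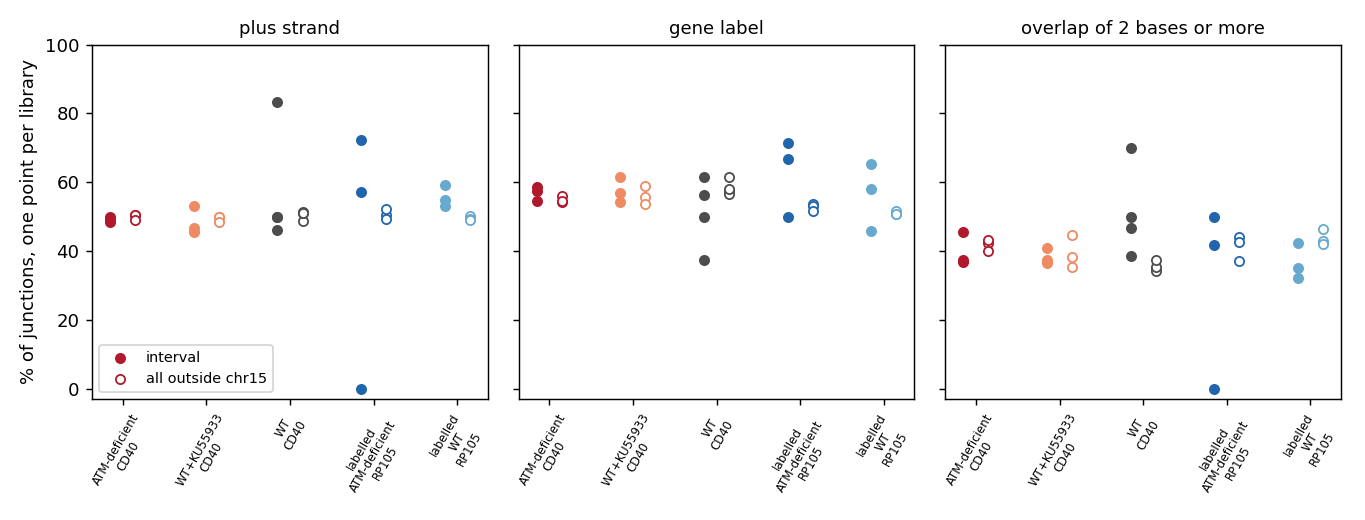
Percent of junctions on the plus strand, with a gene label and with a bait-prey overlap of 2 bases or more, 1 point per library, filled for the interval and open for all junctions outside chromosome 15. Libraries with few interval junctions spread widely, with 0 of 3 on the plus strand in labelled ATM-deficient RP105 replicate 1.

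The labelled junctions were spread over 127 labels, of which 48 were hit once, 25 hit 2 times and 7 at least 10 times. Nrxn3, a neurexin that works in synapses and is one of the longest genes here, led with 34 junctions in 10 libraries, between 89997462 and 91509222. It had 0, 2 and 2 in ATM-deficient CD40 libraries, 1, 6 and 10 in inhibitor libraries and 0, 2, 0 and 0 in WT CD40 libraries. RP105 libraries had 0, 0 and 1 where labelled ATM-deficient and 6, 1 and 3 where labelled WT. Inhibitor libraries thus held 17 of the 34, from the deepest lists of the series. Its 16 plus and 18 minus junctions spread over 1512 kb.

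Rgs6, a regulator of G protein signalling, had 15 junctions, 6 in ATM-deficient, 5 in inhibitor and 1 in WT CD40 libraries, with 1 and 2 in RP105 libraries labelled ATM-deficient and WT. Ttll5, a tubulin polyglutamylase, had 12, with 2, 3 and 1 in the CD40 groups in that order and 1 and 5 in the RP105 groups. Of the Ttll5 junctions 2 were the same position in the shared RP105 pair. Dpf3, a reader subunit of BAF chromatin remodellers, and Ston2, an endocytic adaptor, had 10 each. Dpf3 had 2 in ATM-deficient, 4 in inhibitor and 2 in WT CD40 libraries, and 0 and 2 in RP105 libraries labelled ATM-deficient and WT. Ston2 had 2, 4 and 0 in the same CD40 groups, and 1 and 3 in the same RP105 groups.

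Zfp36l1, which encodes an RNA-binding protein that speeds the decay of AU-rich mRNAs, had 11 junctions from 81211071 to 81213639. Inhibitor libraries held 2, 3 and 4 of them and ATM-deficient CD40 libraries 0, 1 and 0, while WT CD40 libraries held 0. One came from labelled ATM-deficient RP105 replicate 3 and 0 from libraries labelled WT. With 4 unlabelled junctions beside the gene, this was the dense group with the most junctions in the interval, 15 within 5027 bases and in 7 libraries. Batf, an AP-1 family transcription factor needed for class switching, had 9, of which 2, 0 and 1 were in ATM-deficient, 3, 1 and 1 in inhibitor and 0, 1, 0 and 0 in WT CD40 libraries, with 0 under RP105. Of these, 7 lay within 1763 bases. Counts this small carry a wide counting error, and both genes are given as values without a test of their clusters.

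Other frequent labels were 1700019E19Rik with 9 junctions, and 1110034A24Rik, Ltbp2 and Map3k9 with 8 each. Ltbp2, a latent TGF-beta binding protein, had 4 in ATM-deficient, 2 in inhibitor and 0 in WT CD40 libraries, and 1 each in the RP105 groups. Both RP105 junctions of Ltbp2 were the same position in the shared RP105 pair. Map3k9, a kinase upstream of JNK, had 3, 4 and 0 in the CD40 groups and 0 and 1 in RP105 libraries labelled ATM-deficient and WT. All 6 CD40 junctions of 1110034A24Rik were from inhibitor libraries, 2 in each, and the 2 others from RP105 libraries labelled WT. Around it, 9 junctions lay between 70295198 and 70301851, 8 from inhibitor libraries and 1 from WT CD40 replicate 3. Inhibitor libraries, the deepest of the series, held 313 of all 739 interval junctions.

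**Figure D5:**
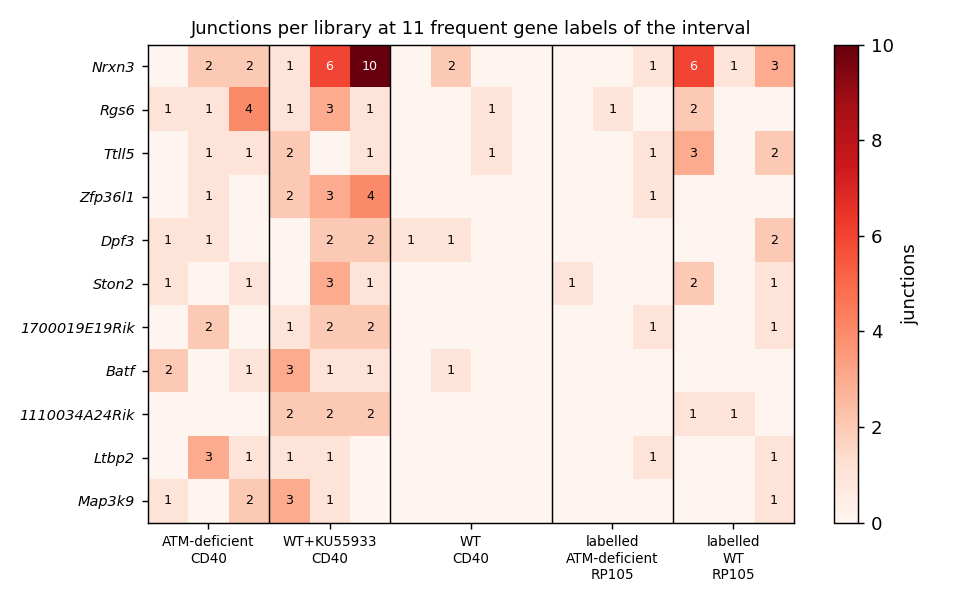
Number of junctions in each library (columns, by group) at 11 of the most frequent gene labels of the interval (rows); empty cells are 0. Nrxn3 reaches 10 in inhibitor replicate 3, and most other cells hold 0 to 4.

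Of the 162 gene labels of the genome with at least 10 junctions, 7 lay in the interval, and none of those 7 passed edgeR's test or DESeq2 in any of the 7 comparisons. The share called over all genes was 0% in ATM-deficient over WT CD40, 0.617% in inhibitor over WT CD40, 0% in ATM-deficient over inhibitor, 0% in labelled ATM-deficient over labelled WT RP105, 1.85% in each comparison of stimuli and 0% in the interaction. In inhibitor over WT CD40 libraries 1 of the 7 had an unadjusted p under 0.05, as did 23 of all 162. That 1 was Zfp36l1 (adjusted p = 0.29 by edgeR). In the other 6 comparisons 0 of the 7 did, against 4 to 25 of the 162. A gene with 10 junctions over 16 libraries gives little power, so these values do not show that genes were hit alike.

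Long genes, a list of 16 that includes Nrxn3, Rgs6, Dpf3 and others below, all had at least 1 junction and 12 had at least 3. Members of this list and of those below were chosen with earlier results of these data known. Without an annotation the share of all genes of the interval that were hit is not known, so such counts have no background. Together the long genes held 116 of the 739 junctions, or 15.7%. They held 25 of 173 in ATM-deficient (14.5%), 56 of 313 in inhibitor (17.9%) and 12 of 51 in WT CD40 libraries (23.5%), and 2 of 28 (7.14%) and 21 of 174 (12.1%) in RP105 libraries labelled ATM-deficient and WT. Beyond those above, Sipa1l1 had 7 junctions, Syne2, which encodes the nuclear envelope protein nesprin-2, and Flrt2, a cell adhesion protein, 6 each, the potassium channel gene Kcnh5 5 and the reticulon gene Rtn1 4. The fucosyltransferase gene Fut8, the formin gene Daam1 and the phosphatase subunit gene Ppp2r5e had 3 each. All 3 Fut8 junctions and 5 of 6 of Syne2 came from inhibitor libraries, which held 313 of the 739 interval junctions.

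Of 9 genes of lymphocyte activation and transcription 6 were hit, for 29 junctions. These were 6 of 173 in ATM-deficient (3.47%), 17 of 313 in inhibitor (5.43%) and 1 of 51 in WT CD40 libraries (1.96%), and 1 of 28 (3.57%) and 4 of 174 (2.30%) in RP105 libraries labelled ATM-deficient and WT. Besides Zfp36l1 and Batf, Max, whose protein pairs with MYC, and Arid4a, a chromatin protein gene, had 3 each. The 3 genes of a DNA repair list held 19 junctions, which were 2 of 173 (1.16%) in ATM-deficient, 11 of 313 (3.51%) in inhibitor and 4 of 51 (7.84%) in WT CD40 libraries, and 0 of 28 and 2 of 174 (1.15%) in RP105 libraries labelled ATM-deficient and WT. Among them, Mnat1, which encodes a subunit of the CDK-activating kinase of TFIIH, had 3 junctions. Most junctions of the DNA repair list fell in 1 gene that is also on the list of long genes, so they are counted in both. No test was run on these lists as a whole.

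Dense groups held a small part of the total. Neighbouring junctions were a median of 22197 bases apart, and 7 groups of at least 4 junctions, each within 3000 bases of the next, held 47 of 739 junctions or 6.36%. Besides the groups at 1110034A24Rik, Zfp36l1 and Batf these lay at Map3k9, Abcd4 and Tmed8 among others, with 4 junctions each. Of the 4 at Abcd4, 3 were from RP105 libraries labelled WT. With all 7 groups left out, an alternative added after the data were seen, the interval rose by 1.14 in ATM-deficient over WT CD40 libraries (adjusted p = 0.00051 by edgeR) and by 0.81 in inhibitor over WT CD40 libraries (adjusted p = 0.027), and fell by 1.68 in libraries labelled ATM-deficient over those labelled WT under RP105 (adjusted p = 1.9e-06). The change was thus about as large without the dense groups in the first and the last of these comparisons. Groups were left out in the interval only. Inhibitor libraries held 8 of the 9 junctions at 1110034A24Rik and 10 of the 15 at Zfp36l1, so a smaller rise in the second comparison is partly built in. Prey that began in a CA repeat were 18 of 739, or 2.44%, against 3.86% outside chromosome 15. They were 1 of 173 (0.578%) in ATM-deficient, 8 of 313 (2.56%) in inhibitor and 0 of 51 in WT CD40 libraries, and 4 of 28 (14.3%) and 5 of 174 (2.87%) in RP105 libraries labelled ATM-deficient and WT. No test was run on these shares.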

How the data were processed

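The files list 1 junction per row, with the start, end and strand of the prey on mm9, the build per the submitters' processing notes, and Gap1, other values in bases per the file headers. The 454 files add a column of read counts per junction, deposited by the authors under a PCR count name, which entered no test. Which aligner and filters the authors used is not given in the sources used here. Rows identical in all position columns (56), mitochondrial rows (3) and 1 broken row were left out. Of the 56, 53 were in ATM-deficient CD40 replicate 3, which alone still held repeated positions outside chromosome 15, 8 of them. With each position counted 1 time per library, the interval rose by 1.16 in ATM-deficient over WT CD40 (adjusted p = 0.00031 by edgeR).

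Counts of junctions were computed here per 30 Mb window, per 5 Mb bin (at least 20 junctions) and per gene label (at least 10), and tested with edgeR 4.0.16 (R 4.3.3) in a model of all 16 libraries, scaled by junctions outside chromosome 15, with Benjamini-Hochberg adjustment at 0.05. Library shares were compared by exact two-sided permutation with scipy 1.17.1. The fits were tested on simulated data. DESeq2 1.42.0, TMM and others were alternatives. Named were labels with at least 10 junctions, the 12 most frequent and list members with at least 3, of which some items are not reported here. Members and lists were chosen with earlier results of these data known. No mm9 annotation was used here, so exons and introns are not given.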

Additional observations from a re-analysis of the deposited data

Results flagged for a closer look

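The interaction for the whole interval was flagged because the genotype effect differed between stimuli by a test of the difference, with a log2 value of -2.75. The same test picked out the bins from 85 to 90 Mb, at -2.67, and from 95 to 100 Mb, at -4.44. Without single libraries these ranged from -3.72 to -2.28 and from -8.33 to -3.89, the lowest of each without labelled ATM-deficient RP105 replicate 3. Neither passed by edgeR with sequencing run as a block. Genotype under RP105 could not be checked from the files.

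In WT CD40 libraries 3 values had 1 library far from the other 3, measured as the gap to the nearest library over the whole range (Dixon's test). The ratio was 0.907 for the interval's share of chromosome 12 junctions below 100 Mb, 0.897 for the plus strand share and 0.866 for the density of the bin from 75 to 80 Mb. For the first and second of these the distant library was replicate 4, which held 6 junctions in the interval. Chance flags about 1 in 20 groups, and 11 values were examined.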

How the results depend on the processing

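The fold change of the interval was recomputed under 146 combinations of comparison and alternative, and 145 kept the direction and the side of the threshold. The exception was inhibitor over WT CD40 libraries without WT CD40 replicate 3, at an adjusted p of 0.15. Leaving out 1 library at a time gave 0.93 to 1.28 for ATM-deficient over WT CD40, 0.82 to 1.00 for inhibitor over WT, 0.02 to 0.37 for ATM-deficient over inhibitor, -2.17 to -1.37 for labelled ATM-deficient over labelled WT RP105, 1.44 to 1.66 and -1.76 to -0.96 for RP105 over CD40 in WT and ATM-deficient labels, and -3.33 to -2.52 for the interaction. With sequencing run as a block ATM-deficient over WT CD40 was 1.44 (adjusted p = 0.0020 by edgeR). Counts of called bins moved. With TMM factors and with 10 Mb bins, labelled ATM-deficient over labelled WT RP105 had 1 bin. Labelled WT RP105 over WT CD40 had 0 with DESeq2 and when junctions beyond 1 Mb of the break were kept, 3 with 10 Mb bins and 0 to 2 without single libraries. Labelled ATM-deficient RP105 over ATM-deficient CD40 had 1 with 10 Mb bins. The interaction had 1 with DESeq2 and with those beyond 1 Mb kept, 0 with run as a block and 0 to 3 without single libraries. The cause was not tested.

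Shares that passed no test changed sign when single libraries were left out. For the share of chromosome 12 below 100 Mb the ranges were -1.66 to 8.56 percentage points (ATM-deficient minus WT CD40), -1.82 to 7.69 (inhibitor minus WT) and -3.10 to 4.14 (ATM-deficient minus inhibitor). For the plus strand they were -11.9 to 0.504 (ATM-deficient minus WT CD40), -0.589 to 3.15 (ATM-deficient minus inhibitor), -27.2 to 8.94 (labelled ATM-deficient minus labelled WT RP105), -5.37 to 7.02 (RP105 minus CD40, WT) and -20.7 to 15.5 (RP105 minus CD40, ATM-deficient). Gene labels gave -2.32 to 1.37 for ATM-deficient minus inhibitor. Overlap gave -1.19 to 3.25 for ATM-deficient minus inhibitor, -15.7 to 9.29 for labelled ATM-deficient minus labelled WT RP105 and -19.1 to 5.88 for RP105 minus CD40 in ATM-deficient labels.

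Deviations of same-numbered libraries had a median correlation of 0.000385 over 30 pairs, against -0.000245 over 72 pairs with different numbers. Junction counts per library are small, and counting noise can hide a correlation between paired libraries. Whether replicate numbers pair the libraries could therefore not be decided from these values. With the replicate block the interval gave 1.09 (adjusted p = 0.0010 by edgeR) for ATM-deficient over WT CD40, 0.83 (0.022) for inhibitor over WT and -1.60 (7.6e-07) for labelled ATM-deficient over labelled WT RP105, and bins called in the interaction numbered 2. Depth limits the RP105 libraries labelled ATM-deficient most, with 28 interval junctions in all.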
